A study of Mus musculus with 15 samples.

Results

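Inflammatory cytokine genes, 10 in number, were followed across blood monocytes and the macrophages of the mouse small intestine. The genes were a list of symbols (Tnf, Il1a, Il1b, Il1rn, Il6, Il12a, Il12b, Il23a, Il18 and Ifnb1), and 9 of the 10 were matched to a gene identifier in a table of 19456 genes. Gene positions below are on GRCm38. Il12a was not analysed here. RNA was sequenced from cells sorted by flow cytometry from adult male wild-type C57BL/6 mice that carried no transgene and received no treatment. Ly6Chi monocytes were taken from peripheral blood (n = 3), and 3 macrophage subsets were taken from the small intestine (n = 4 each). The subset that stained for neither surface protein was Tim-4-CD4-, called DN here. The subset with CD4 alone was Tim-4-CD4+, called SP. The subset that stained for both was Tim-4+CD4+, called DP. Each library was a pool of 3 mice, with the exception of the second monocyte library, a pool of 4. The macrophage sort took CD64+ MHCII+ cells and excluded cells that stained for Ly6C. The macrophages were released from the gut by enzymatic digestion, a step that the blood cells did not undergo. Tissue of origin and digestion therefore cannot be told apart in any comparison with monocytes, and the 3 such comparisons share the same monocyte libraries.

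Inflammatory cytokines are secreted proteins through which macrophages alert neighbouring cells to microbes and damage. IL-1α and IL-1β signal through the type 1 IL-1 receptor, which the IL-1 receptor antagonist encoded by Il1rn occupies without signalling, and IL-1β and IL-18 are made as precursors that need cleavage before release. In the intestine, resident macrophages live beside commensal bacteria and are known for a restrained cytokine response, while IL-1β and IL-23 act on lymphoid cells that guard the epithelium. IL-12 and IL-23 share the subunit encoded by Il12b. Messenger RNA was measured here, and neither cleavage nor secretion of the proteins was.

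The libraries held 39388763 to 151510641 counted reads (median 63249039), and levels are given in CPM, counts scaled to a common library size. The sorting markers followed the labels. Timd4, encoding Tim-4, averaged 355 CPM in DP macrophages and 1.70 CPM in SP macrophages, and Cd4 averaged 22.9, 531 and 816 CPM in DN, SP and DP macrophages. The summed level of 8 macrophage markers was 25836 to 28119 CPM in DN libraries and 3378 to 3705 CPM in monocytes. Of 10 neutrophil markers 7 were in the table, and they summed to 147 to 187, 163 to 194 and 179 to 201 CPM in DN, SP and DP libraries. Nearly all of this was Csf3r, at 161, 177 and 189 CPM and 454 CPM in monocytes. Retnlg averaged 0.562 CPM in DN macrophages and had no read in monocytes. S100a8 and S100a9 were near 0 in the macrophages, and averaged 1.21 and 0.413 CPM in the monocyte libraries. Markers of T cells summed to at most 17.7 CPM and those of B and plasma cells to 239 to 428 CPM in DP libraries, a range that overlapped those of the other subsets. The markers of B and plasma cells summed to only 8.46 to 10.5 CPM in monocytes. Transcripts of other gut cells thus also differ in the comparisons with monocytes, and their part in those was not tested.

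The promoters of 4 members are shown because Il1a, Tnf and Il6 changed between the macrophage subsets, whereas Il1b, the neighbour of Il1a, did not pass the test. Il1a and Il1b are neighbours on chromosome 2, separated by 54597 bases and read from the same strand, and Tnf and Il6 lie on chromosomes 17 and 5. Each line gives the 250 bases before the transcription start (RefSeq, GRCm38.p6), 5′ to 3′ along the gene, with motif matches on either strand in capitals. The motifs searched were the TATA box (as TATAAA), the AP-1 site (as TGANTCA) and the kappaB site. Matches to the C/EBP and IRF motifs, which 36.8% and 2.98% of all such promoters held, are not marked.
Il1a, chr2:129309973-129310222, - strand: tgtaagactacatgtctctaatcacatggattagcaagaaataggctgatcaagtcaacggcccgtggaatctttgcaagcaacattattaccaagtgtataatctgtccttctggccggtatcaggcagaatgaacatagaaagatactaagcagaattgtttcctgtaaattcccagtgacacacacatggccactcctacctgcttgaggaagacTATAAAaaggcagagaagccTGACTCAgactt
Il1b, chr2:129371140-129371389, - strand: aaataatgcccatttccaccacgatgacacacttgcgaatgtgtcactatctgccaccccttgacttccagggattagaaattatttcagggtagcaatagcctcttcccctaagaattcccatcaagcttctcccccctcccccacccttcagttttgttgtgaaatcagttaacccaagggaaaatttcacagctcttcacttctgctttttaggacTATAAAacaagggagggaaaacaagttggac
Tnf, chr17:35202008-35202257, - strand: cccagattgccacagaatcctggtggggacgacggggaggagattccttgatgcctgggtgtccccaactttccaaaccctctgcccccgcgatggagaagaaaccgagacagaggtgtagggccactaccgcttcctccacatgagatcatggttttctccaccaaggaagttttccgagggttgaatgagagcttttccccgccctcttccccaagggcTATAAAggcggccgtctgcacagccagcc
Il6, chr5:30012864-30013113, + strand: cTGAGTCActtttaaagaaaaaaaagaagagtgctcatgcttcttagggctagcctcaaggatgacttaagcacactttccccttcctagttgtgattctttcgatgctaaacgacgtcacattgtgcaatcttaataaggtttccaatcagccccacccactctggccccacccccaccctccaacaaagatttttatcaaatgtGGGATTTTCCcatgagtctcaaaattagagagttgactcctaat

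The Il1a promoter held an AP-1 match 12 to 6 bases before the start and a TATA match 32 to 27 bases before it. Of these 3 motifs the Il1b and Tnf promoters held the TATA box alone, at 31 to 26 and 29 to 24 bases before the start. The Il6 promoter held a kappaB match 44 to 35 bases before the start and an AP-1 match 249 to 243 bases before it. Among 32851 mouse promoters of this length, 12.4% held the TATA box letters, 6.75% the AP-1 letters and 7.25% the kappaB letters. These are matches of letters, and binding of the factors was not measured. Of the other members with a RefSeq promoter entry, Ifnb1 held a kappaB match 116 to 107 bases before the start and TATA matches at 210 to 205 and 82 to 77 bases. Il1rn held an AP-1 match 141 to 135 bases before 1 of its 3 starts, Il18 a TATA match at 175 to 170 bases on the other strand, and Il12b none of the 3 motifs.

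Transcripts of 8 of the 9 cytokine genes were higher in each macrophage subset than in blood monocytes, where 37.3% to 39.5% of all tested genes were higher. Il1a, Il6, Il12b, Il23a and Ifnb1 had to be higher, because they passed the low-count filter only through the macrophage libraries. Within the macrophages a group of genes was highest in the DN subset. Il1b was the most abundant member, at 36.3 CPM in monocytes and 3779, 3173 and 2910.1 CPM in DN, SP and DP macrophages. Il1a, Il6 and Tnf fell from DN to both CD4+ subsets, and Il1rn fell from DN to DP macrophages. Il23a was also lower in both CD4+ subsets, but its call against SP macrophages was lost in 12 of 21 alternative analyses. Il1b, Il12b, Il18 and Ifnb1 did not pass the test between any pair of subsets. Genes were called at an adjusted p under 0.05 (edgeR quasi-likelihood test, Benjamini-Hochberg over 15802 genes).

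Against monocytes, all 9 members were called in DN macrophages, 8 higher and 1 (Il18) lower, where 65.4% of all tested genes were called in either direction and 37.3% were higher. In SP macrophages 8 of 9 were called, all higher, against 69.8% of all genes in either direction and 39.1% higher. In DP macrophages 8 of 9 were called, all higher, against 70.9% in either direction and 39.5% higher. Il1a, Il6, Il12b, Il23a and Ifnb1 passed the filter on low counts only through the macrophage libraries, so they had to be higher there and these counts are a description. The macrophage and monocyte libraries did not overlap for 9, 8 and 8 members in the 3 comparisons, where 67.6%, 70.1% and 68.7% of all genes did not overlap.

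The comparisons of the CD4+ subsets with DN macrophages share the DN libraries. Between macrophage subsets, 4 of 9 members were called in SP against DN macrophages, all lower, against 10.1% of all genes in either direction, 4.52% higher and 5.53% lower. In DP against DN macrophages 5 of 9 were called, all lower, against 23.1% in either direction, 11.3% higher and 11.9% lower. The median log2 fold change of the members was -0.51 in the first comparison and -0.55 in the second, while that over all tested genes was -0.0029 and -0.0047. Between DP and SP macrophages no member was called by edgeR, against 3.41% of all genes (2.07% higher and 1.34% lower), 1 member (Il1rn) had an unadjusted p under 0.05, and DESeq2 called 1 (Il1rn). The libraries of the compared subsets did not overlap for 5, 5 and 1 of the 9 members in these 3 comparisons, where 19.1%, 26.4% and 9.63% of all genes did not overlap.

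**Figure D1:**
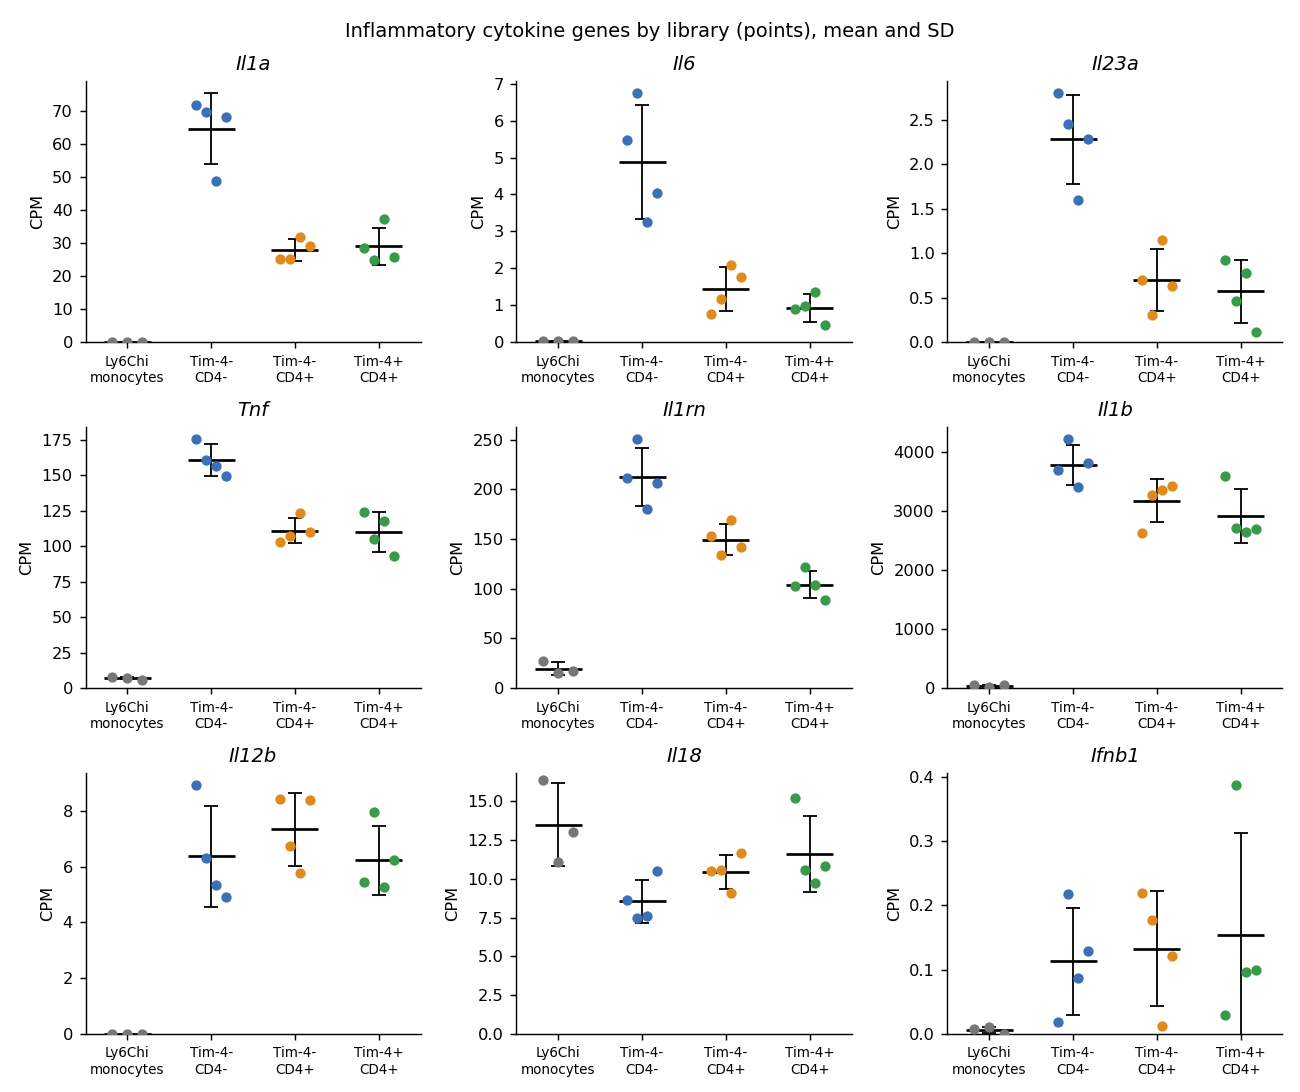
CPM of each cytokine gene (y axes, linear from 0, each gene on its own scale) in the 15 libraries by population; points are libraries, bars the mean and whiskers the SD (cut at 0 for Ifnb1). Il1a, Il6, Il23a, Tnf and Il1rn sit higher in all 4 DN libraries than in any CD4+ library. Il12b spreads over the same range in the 3 subsets, and Il18 is the 1 gene with its highest mean in monocytes.

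Among the IL-1 agonists, Il1b (ENSMUSG00000027398.13, chr2:129364570-129371139, - strand) was measured at 47.0, 19.9 and 42.0 CPM in monocyte replicates 1 to 3. It reached 3685, 4214, 3411 and 3806 CPM in DN replicates 1 to 4, 2631, 3277, 3358 and 3427 CPM in SP replicates and 3592, 2704, 2648 and 2696 CPM in DP replicates. Every macrophage library lay above every monocyte library, by 80.2- to 104-fold in the subset means. The 3 subsets overlapped, with a log2 fold change of -0.25 ± 0.19 (SE) in SP (adjusted p = 0.496) and -0.38 ± 0.19 in DP (adjusted p = 0.179) against DN macrophages by edgeR. Leaving out monocyte replicate 2, which held the lowest Il1b of the 3 and shares the estimate of spread, gave -0.37 for the second with an adjusted p of 0.0343.

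Il1a (ENSMUSG00000027399.1, chr2:129299610-129309972, - strand), the agonist that acts without cleavage, was nearly undetected in monocytes, with 2, 4 and 0 reads in the 3 libraries. It was 71.8, 69.7, 48.7 and 68.1 CPM in DN, 25.1, 25.3, 32.0 and 29.0 CPM in SP and 28.4, 24.9, 37.2 and 25.7 CPM in DP replicates 1 to 4. The lowest DN library stood above the highest library of either CD4+ subset, and the CD4+ subsets overlapped each other. Il1a was 2.32-fold higher in DN than in SP macrophages (log2 fold change -1.21 ± 0.15, edgeR adjusted p = 7.1e-05). Against DP macrophages the same subset was 2.23-fold higher (log2 fold change -1.15 ± 0.15, edgeR adjusted p = 3.62e-05). The pooled level in DN macrophages was 3229.9-fold (95% counting interval 1484 to 8803) that in monocytes, an interval that covers counting error only.

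Il1rn (ENSMUSG00000026981.15, chr2:24336853-24351494, + strand), encoding the receptor antagonist, was 26.8, 15.2 and 16.6 CPM in monocytes. It was 212, 251, 179.7 and 206 CPM in DN, 153, 133, 169 and 142 CPM in SP and 103, 122, 103 and 88.2 CPM in DP replicates 1 to 4. The 4 populations did not overlap, and the order was DN highest, then SP, then DP, then monocytes. Il1rn was 2.04-fold higher in DN than in DP macrophages (log2 fold change -1.03 ± 0.16, edgeR adjusted p = 0.000154). The 2 steps between did not pass the test, at -0.51 ± 0.16 (edgeR adjusted p = 0.0516) for SP against DN and -0.52 ± 0.16 (edgeR adjusted p = 0.0935) for DP against SP. DESeq2 called both, with adjusted p of 0.0197 and 0.0255. Without monocyte replicate 1 edgeR also called both, with adjusted p of 0.0115 and 0.0197. The edgeR fit of only the 2 populations compared called both as well (0.00975 and 0.0349). The first was also called without monocyte replicate 2 (0.0396), SP replicate 3 (0.0467) or DP replicate 1 (0.0466). A filter at a mean of at least 1 CPM (0.0470) and a block by the replicate numbers of the sample descriptions (0.0437) called it too. In all, the first was called in 8 of 22 alternative analyses and the second in 3 of 22.

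Ratios within a library set the IL-1 genes against each other without library scaling. Il1rn reads per 100 Il1b reads were 57.0, 76.2 and 39.6 in monocytes. They were 5.75, 5.95, 5.27 and 5.42 in DN, 5.81, 4.07, 5.03 and 4.14 in SP and 2.86, 4.49, 3.90 and 3.27 in DP replicates 1 to 4. Antagonist reads were thus most frequent relative to Il1b in the monocytes (57.6 ± 18.3 per 100, SD, n = 3), where both genes were low, and least frequent in DP macrophages (3.63 ± 0.718 per 100, n = 4). DP and DN libraries did not overlap, and the mean log2 ratio differed by -0.64 (exact two-sided permutation test, p = 0.0286, the smallest that 4 against 4 libraries allow, adjusted over 6 ratio tests p = 0.0571).

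Il1a reads per 100 Il1b reads were 1.95, 1.65, 1.43 and 1.79 in DN, 0.955, 0.771, 0.952 and 0.847 in SP and 0.790, 0.919, 1.40 and 0.954 in DP replicates 1 to 4. The DN libraries lay above all those of the CD4+ subsets, narrowly so for DP replicate 3. The log2 ratio differed from that in DN macrophages by -0.95 in SP and -0.77 in DP macrophages (exact two-sided permutation test, p = 0.0286 and adjusted p = 0.0571 for each). No ratio test stayed under 0.05 after adjustment. Where the libraries did not overlap, the exact permutation test had already reached the smallest p that 4 against 4 libraries allow. With the other ratio tests above that value, the adjusted p of the exact permutation test could not fall below 0.0571. The adjusted tests therefore cannot decide at 0.05 whether these ratios differ. The monocyte ratios are given as a description.

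**Figure D2:**
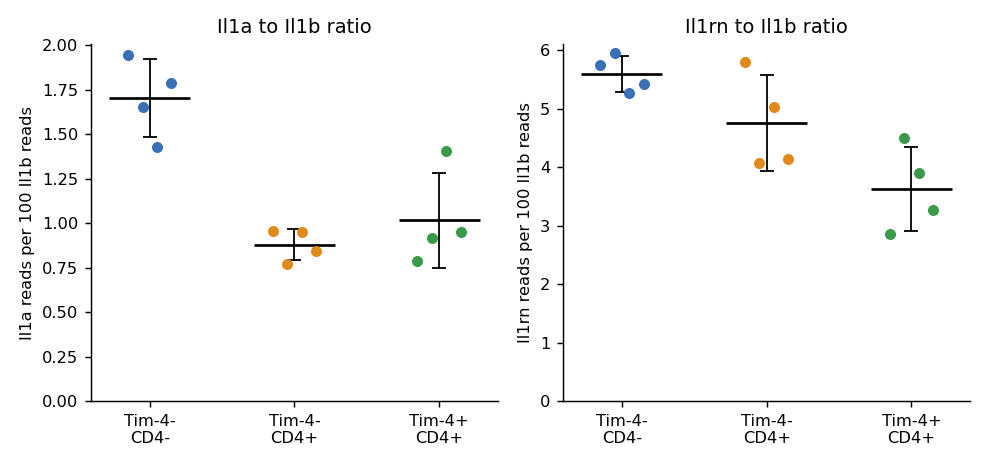
Reads of Il1a (left) and Il1rn (right) per 100 Il1b reads in each macrophage library (points), with the mean (bar) and SD (whiskers) of the 4 libraries in each subset and y axes from 0. The Il1a ratio averages 1.70, 0.881 and 1.02 and the Il1rn ratio 5.60, 4.76 and 3.63 from left to right.

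Il18 (ENSMUSG00000039217.12, chr9:50554827-50581840, + strand), an IL-1 family cytokine whose precursor is stored in resting cells, did not follow the other members. It was 16.4, 11.1 and 13.0 CPM in monocytes, 8.65, 7.47, 7.59 and 10.5 CPM in DN, 10.5, 10.5, 9.05 and 11.7 CPM in SP and 15.2, 10.6, 9.73 and 10.8 CPM in DP replicates. Monocytes lay above all DN libraries and overlapped both CD4+ subsets. Il18 fell by 0.66 ± 0.17 on the log2 scale in DN macrophages against monocytes (edgeR adjusted p = 0.00299). The differences from monocytes were -0.37 ± 0.17 (edgeR adjusted p = 0.0653) in SP and -0.22 ± 0.17 (edgeR adjusted p = 0.261) in DP macrophages. Between DP and DN macrophages the log2 fold change was 0.44 ± 0.16 (edgeR adjusted p = 0.0587), and DESeq2 called it at an adjusted p of 0.028. It was called by edgeR without monocyte replicate 1 (0.0472), DN replicate 4 (0.0298) or DP replicate 3 (0.0347). Relative log expression scaling (0.0460) and a filter at a mean of at least 1 CPM (0.0407) also gave the call in edgeR. In all, 7 of 22 alternative analyses called it. Without DP replicate 1, the library with the highest Il18 of its subset, both CD4+ subsets were called lower than monocytes (0.0376 and 0.0468), as was SP without monocyte replicate 2 (0.0408). SP was also called lower in the edgeR fit of only the 2 populations compared (0.0471).

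Tnf (ENSMUSG00000024401.14, chr17:35199381-35202007, - strand), encoding the tumour necrosis factor that macrophages release early in a response, was 7.40, 7.07 and 5.91 CPM in monocytes. It was 176, 161, 157 and 149.8 CPM in DN, 103, 107, 124 and 110.1 CPM in SP and 124, 105, 118 and 93.1 CPM in DP replicates 1 to 4. Monocytes were far below every macrophage library, DN stood above both CD4+ subsets, and the CD4+ subsets overlapped. Tnf was 1.45-fold higher in DN than in SP macrophages (log2 fold change -0.54 ± 0.10, edgeR adjusted p = 0.00233). It was 1.46-fold higher than in DP macrophages (log2 fold change -0.55 ± 0.10, edgeR adjusted p = 0.000821). Between the CD4+ subsets the log2 fold change was -0.01 ± 0.10. Against monocytes Tnf was 23.6-, 16.3- and 16.1-fold higher in DN, SP and DP macrophages.

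Il6 (ENSMUSG00000025746.11, chr5:30013114-30019981, + strand), whose product drives the acute-phase response and the differentiation of T and B cells, was counted in 4, 4 and 1 reads in the 3 monocyte libraries. It was 5.48, 6.74, 3.26 and 4.04 CPM in DN, 0.769, 1.16, 2.08 and 1.76 CPM in SP and 0.905, 0.973, 1.37 and 0.464 CPM in DP replicates 1 to 4. These are low levels, with 28 to 402 reads a macrophage library, yet no DN library overlapped a CD4+ library. Il6 was 3.35-fold higher in DN than in SP macrophages (log2 fold change -1.74 ± 0.35, edgeR adjusted p = 0.00341). It was 5.25-fold higher than in DP macrophages (log2 fold change -2.39 ± 0.36, edgeR adjusted p = 0.00011). The 2 CD4+ subsets overlapped, at -0.65 ± 0.35 (edgeR adjusted p = 0.413). Relative to monocytes the pooled Il6 level was 167-fold (95% counting interval 87.8 to 367) in DN and 30.9-fold (95% counting interval 16.1 to 68.2) in DP macrophages.

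Of the subunits of IL-12 and IL-23, only Il12b and Il23a were analysed, and a difference between their changes was not tested. Il12b (ENSMUSG00000004296.14, chr11:44400063-44414033, + strand), the subunit shared by both cytokines, had no read in any monocyte library. It was 8.93, 6.32, 5.33 and 4.89 CPM in DN, 8.41, 6.75, 5.78 and 8.39 CPM in SP and 5.43, 7.95, 5.27 and 6.24 CPM in DP replicates 1 to 4, so the 3 subsets covered one range. The log2 fold change was 0.20 ± 0.21 (edgeR adjusted p = 0.640) and -0.03 ± 0.21 (edgeR adjusted p = 0.939) in the CD4+ subsets against DN macrophages. Against a floor of 3 reads over the monocyte libraries, Il12b was at least 648-, 749.8- and 635-fold higher in DN, SP and DP macrophages.

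Il23a (ENSMUSG00000025383.1, chr10:128296139-128298752, - strand), the subunit particular to IL-23, also had no read in monocytes. It was 2.79, 2.45, 1.60 and 2.28 CPM in DN, 0.696, 0.303, 1.15 and 0.628 CPM in SP and 0.924, 0.465, 0.772 and 0.116 CPM in DP replicates 1 to 4. The lowest DN library lay above every CD4+ library, and within DP macrophages the libraries ranged from 7 to 95 reads. Il23a was 3.97-fold higher in DN than in DP macrophages (log2 fold change -1.99 ± 0.51, edgeR adjusted p = 0.0106). Against SP macrophages it was 3.24-fold higher (log2 fold change -1.70 ± 0.50, edgeR adjusted p = 0.0466), a call that was lost in 12 of 21 alternative analyses that gave a value, with adjusted p from 0.0502 to 0.13. The call was lost on leaving out any 1 DN library, SP replicate 1, 2 or 4, or DP replicate 2 or 3. On the same floor Il23a was at least 229-fold higher in DN and 59.3-fold higher in DP macrophages than in monocytes.

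Ifnb1 (ENSMUSG00000048806.4, chr4:88522025-88522774, - strand), encoding the type I interferon IFN-β, was close to the limit of detection. Read counts were 1, 1 and 0 in monocytes, 1, 13, 4 and 5 in DN, 12, 7, 1 and 18 in SP and 3, 45, 6 and 6 in DP replicates. The subsets overlapped throughout, and 45 of the 60 reads in DP macrophages came from replicate 2. The log2 fold change against DN macrophages was 0.18 ± 0.89 in SP and 0.46 ± 0.86 in DP macrophages (edgeR adjusted p = 0.942 and 0.757), and the second turned to -0.63 without DP replicate 2. No difference between subsets was detected. With standard errors of 0.84 to 0.89, changes of that size and larger ones could have gone undetected. The pooled level in DN macrophages was 17.2-fold (95% counting interval 4.24 to 150.2) that in monocytes.

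**Figure D3:**
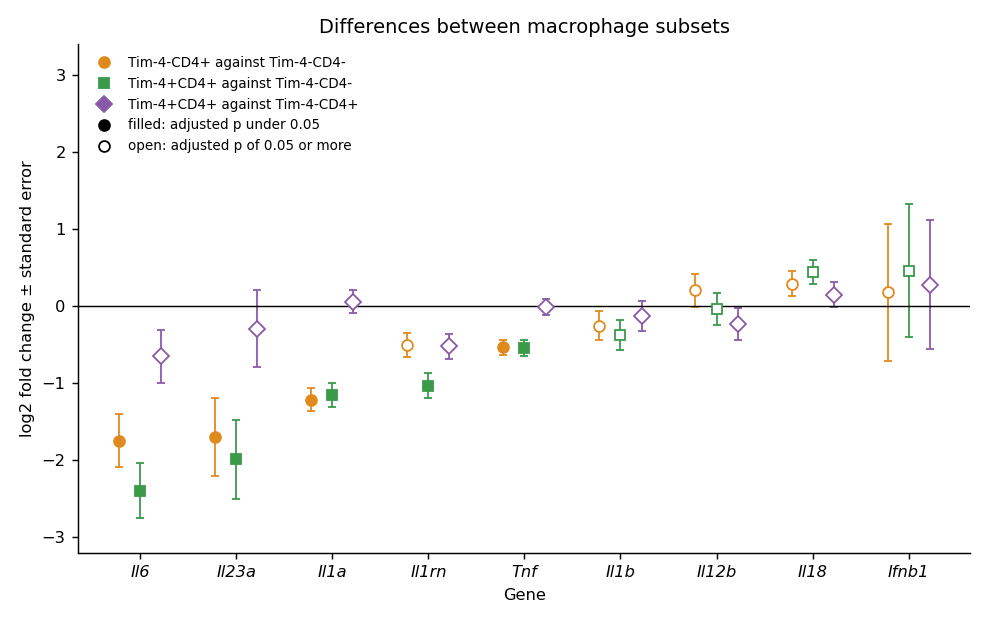
Log2 fold change with its standard error (y axis) of each cytokine gene (x axis) in the 3 comparisons between macrophage subsets; filled symbols passed an adjusted p under 0.05 in the edgeR fit. Il6, Il23a, Il1a and Tnf lie below 0 with filled symbols in both comparisons with DN macrophages. Il1rn also lies below 0 in both, filled for DP alone, and Il1b lies below 0 in both with open symbols. No symbol of the comparison between the CD4+ subsets is filled.

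Per kilobase of exon, which allows levels to be compared between genes, Il1b was the highest member in every population. In DN macrophages it stood at 1982 ± 175 CPM per kilobase, Tnf at 98.2 ± 6.70, Il1rn at 38.3 ± 5.31 and Il1a at 32.7 ± 5.40 (SD, n = 4). Il1rn and Il1a overlapped. Il18 followed at 8.29 ± 1.35, Il12b at 3.24 ± 0.919, Il6 at 2.01 ± 0.636, Il23a at 1.01 ± 0.224 and Ifnb1 at 0.151 ± 0.111 CPM per kilobase, and the libraries of Il12b and Il6 overlapped. In monocytes the order began with Il1b at 19.0 ± 7.55 and Il18 at 13.1 ± 2.61 CPM per kilobase (n = 3), which overlapped, before Tnf at 4.15 ± 0.479 and Il1rn at 3.53 ± 1.14, which also overlapped. The Il1rn value divides by 5535 bases of all annotated exons, including alternative first exons, and is a lower estimate where only 1 isoform is used.

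Because these are bulk samples, fewer cells that express a gene and less RNA per cell cannot be told apart. Other genes moved with the same comparisons. The counts in the lists below are to be read beside the shares of all tested genes. Against monocytes, 37.3% to 39.5% of all genes were higher in the macrophage subsets. In SP against DN macrophages 4.52% were higher and 5.53% lower. In DP against DN macrophages 11.3% were higher and 11.9% lower. Of 15 early response and heat shock genes, which are known to rise in cells handled after tissue digestion, all 15 were higher in each macrophage subset than in monocytes. Their summed level was 1075 to 1267 CPM in monocytes and 31392 to 38224, 27382 to 39113 and 26878 to 31884 CPM in DN, SP and DP libraries. Between subsets 2 of 15 were lower in SP and 5 of 15 in DP than in DN macrophages, and Egr2 fell by 1.27 ± 0.15 on the log2 scale in the latter (edgeR adjusted p = 6.89e-06). Their part in the cytokine differences was not tested.

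Several markers of blood monocytes and dendritic cells were also highest among the macrophages in the DN subset. The 6 monocyte markers summed to 926 to 1216 CPM in DN, 344 to 505 CPM in SP and 126 to 303 CPM in DP libraries, led by Ccr2 at 660.0, 84.1 and 8.39 CPM, whereas Ly6c2 stayed under 2 CPM in the mean of each subset. The 8 dendritic cell markers summed to 122 to 175 CPM in DN, 97.1 to 118 CPM in SP and 96.5 to 155 CPM in DP libraries, ranges that overlapped between the first and the last. Flt3 averaged 8.65 CPM in DN (4.41 to 17.9 CPM by library) and 0.572 CPM in DP macrophages. It was higher in monocytes, at 29.6 CPM, so here it did not set dendritic cells apart from monocytes. Of the 8 dendritic cell markers, 3 were lower in SP and 4 in DP than in DN macrophages, and Xcr1, Clec9a and Batf3 did not pass the test in either. In the other direction, 4 of 7 mesenchymal markers were higher in DP than in DN macrophages, with summed levels of 103 to 143 and 61.7 to 94.2 CPM. Monocyte libraries held 1.41 to 2.20 CPM of the mesenchymal markers. Of 8 epithelial markers, 3 (Fabp2, Krt20 and Vil1) were higher and 1 (Cdh1) lower in each CD4+ subset than in DN macrophages, and the list summed to 13.1 to 30.5, 18.3 to 24.3 and 19.5 to 29.8 CPM in DN, SP and DP libraries. Of 8 T cell and innate lymphoid cell markers, 2 (Cd3e and Trac) were higher in SP than in DN macrophages. Their part in the cytokine differences was not tested.

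Receptors and soluble inhibitors of these cytokines did not move in one direction. Of 15 genes, 2 were higher and 2 lower in SP than in DN macrophages, and 3 were higher and 5 lower in DP macrophages. Il12rb2, a receptor chain for IL-12, rose from 6.51 ± 0.576 to 29.2 ± 2.71 and 23.4 ± 5.60 CPM (SD, n = 4; log2 fold change 2.17 ± 0.16 and 1.85 ± 0.16, edgeR adjusted p = 3.57e-07 and 3.03e-07). Il18bp, which neutralises IL-18, averaged 6.66 CPM in monocytes and 46.0, 80.8 and 102 CPM in DN, SP and DP macrophages, with a log2 fold change of 1.15 ± 0.37 in the last against the first subset (edgeR adjusted p = 0.0339). Il1r2, the decoy receptor for IL-1, was 2.75 CPM in monocytes and 114, 128 and 144 CPM in the subsets, with no call between them. The signalling receptor Il1r1 averaged 1.05 CPM in DN macrophages.

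Of 10 genes for maturation and release, 1 was higher and 1 lower in SP than in DN macrophages, and 3 were higher and 1 lower in DP macrophages. Among all tested genes 4.52% were higher and 5.53% lower in the first comparison, and 11.3% and 11.9% in the second. Nlrp3, the inflammasome sensor upstream of IL-1β cleavage, averaged 403, 302 and 258 CPM in DN, SP and DP macrophages, and fell by 0.42 ± 0.09 and 0.64 ± 0.09 on the log2 scale against the first (edgeR adjusted p = 0.00471 and 4.42e-05). Rhbdf2, needed for the shedding of TNF, rose by 0.56 ± 0.12 in DP macrophages (edgeR adjusted p = 0.00232). Casp1, the protease that cleaves IL-1β and IL-18, was 47.6, 50.8 and 47.7 CPM, with no call between subsets.

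Of 15 transcription factor genes, 1 was higher and 4 lower in SP than in DN macrophages, and 2 were higher and 6 lower in DP macrophages. The NF-kappaB subunit genes Nfkb1 and Rela fell in both comparisons, Rela by 0.32 ± 0.09 and 0.34 ± 0.09 on the log2 scale (edgeR adjusted p = 0.0315 and 0.00989). Nfkbiz, a nuclear cofactor for Il6 transcription, averaged 47.2 CPM in monocytes and 2504, 1799 and 1478 CPM in the subsets and fell by 0.76 ± 0.10 on the log2 scale from DN to DP macrophages (edgeR adjusted p = 4.31e-05). Irf8 rose by 0.53 ± 0.08 in the same comparison (edgeR adjusted p = 0.000189).

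Of 15 feedback inhibitors of cytokine signalling, none was higher and 5 were lower in SP than in DN macrophages. In DP macrophages 2 (Tnip1 and Tnip2) were higher and 6 lower, and the others did not pass the test. Socs3, which limits IL-6 signalling, averaged 993, 578 and 528 CPM and fell by 0.78 ± 0.11 and 0.91 ± 0.11 on the log2 scale (edgeR adjusted p = 0.000207 and 1.43e-05). Zc3h12a, whose product degrades Il6 transcripts, averaged 175, 117 and 105 CPM and fell by 0.74 ± 0.13 in DP macrophages (edgeR adjusted p = 0.000425). Nfkbia, encoding the NF-kappaB inhibitor, fell by 0.70 ± 0.16 and 0.77 ± 0.16 (edgeR adjusted p = 0.00807 and 0.00178). Tnip3 was low and averaged 7.72, 0.514 and 0.156 CPM.

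Of 17 other cytokines of the same families, 6 could be tested. In SP against DN macrophages edgeR called 0 of the 6, and 1 (Il27) had an unadjusted p under 0.05 (0.0101). Il27 and Ebi3, which encode the subunits of IL-27, were higher in DP than in DN macrophages. Il27 averaged 10.4, 15.2 and 19.2 CPM across the subsets (log2 fold change 0.89 ± 0.19, edgeR adjusted p = 0.00230). Ebi3 averaged 92.5, 104 and 130.5 CPM (log2 fold change 0.50 ± 0.08, edgeR adjusted p = 0.00036), the opposite direction to Il23a.

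**Figure D4:**
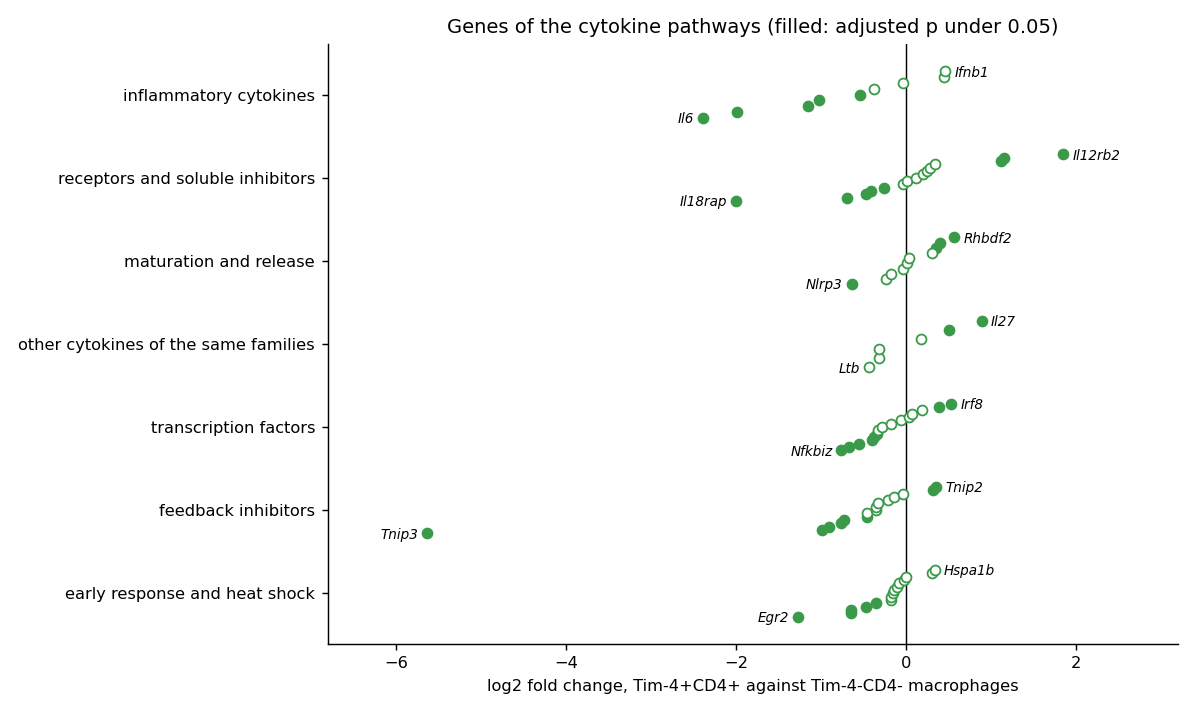
Log2 fold change in DP against DN macrophages (x axis) of the cytokine genes and of 6 lists of related genes (rows), with the lowest and highest gene of each row named; filled points passed an adjusted p under 0.05. The filled cytokine genes all lie left of 0, from Tnf at -0.55 to Il6 at -2.39, while receptors hold filled points on both sides.

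Across the 12 macrophage libraries the members varied together to different degrees. These correlations are of log2 CPM, include the differences between subsets, share library preparation and depth, and are given with no test. Tnf, Il1a, Il6 and Il23a correlated with each other at Pearson r of 0.85 to 0.93, and Il1rn correlated with Il6 at 0.90. Il1b, which was not called between subsets, correlated with Il6 at 0.80, Tnf at 0.78, Il1rn at 0.72, Il23a at 0.71 and Il1a at 0.71. Il12b correlated with Il23a, its partner in IL-23, at -0.14. Il18 correlated with Il6 at -0.67.

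Among all genes with a mean of at least 1 CPM, those most like Il6 were Zc3h12a (r = 0.96), Fam129b (r = 0.96) and Clec4e (r = 0.96). For Il1a they were Fam129b (r = 0.96), Lrrc42 (r = 0.96) and 1110038B12Rik (r = 0.95), and for Il23a Acod1 (r = 0.95), Gm29340 (r = 0.94) and 4930430E12Rik (r = 0.94). Tnf was most like Gpi1 (r = 0.97), Kcnn4 (r = 0.97) and Rpl8 (r = 0.97), Il1b most like Gpr132 (r = 0.95), Rabgef1 (r = 0.94) and Cox4i1 (r = 0.93) and Il1rn most like Gm4430 (r = 0.97), Cd300lb (r = 0.97) and Sema4a (r = 0.97). Il18 was most like Laptm4a (r = 0.95), Gm15513 (r = 0.94) and Fbxw9 (r = 0.94). Il12b, most like Pcnx (r = 0.86), Gm43914 (r = 0.82) and Xpo6 (r = 0.82), and Ifnb1, most like Spidr (r = 0.83), Cog6 (r = 0.80) and Gm37760 (r = 0.80), had lower values.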

How the data were processed

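RNA-seq of 15 libraries (3 of blood monocytes, 4 of each macrophage subset) was analysed from the deposited table. Per the study's methods, the authors prepared stranded poly(A) libraries, aligned paired reads with STAR to GRCm38 and counted reads per gene. The submitters' processing notes name bcl2fastq 2.17.1.14, Trimmomatic 0.36, HTSeq 0.6.1p1 and DESeq2. The strand setting of the counting is not given in the sources used here. The deposited raw counts per gene were used. A further 15 per-sample columns of the same table, holding values normalized by the authors, were not used. The least counted gene of the table held 16 reads over all libraries, and 19421 of 19456 identifiers were named from the GRCm38 annotation.

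Counts were scaled by TMM and tested by edgeR 4.0.16 (R 4.3.3, limma 3.58.1) with the quasi-likelihood test in 1 fit of all 15 libraries. The low-count filter (filterByExpr by population) kept 15802 genes, and Benjamini-Hochberg adjustment ran over all of them. CPM use TMM-scaled library sizes, errors of log2 fold changes are standard errors, and correlations use log2 CPM with a prior count of 2. Where monocytes held few reads, the ratio of pooled counts is given with an exact 95% interval. Such intervals, and the floor of 3 counts used where they held none, cover counting error only. Ratios of IL-1 genes were tested by exact permutation after adding 0.5 to each count (SciPy 1.17.1). Within a population, libraries were separate pools of mice, so p-values measure the spread between pools. Per the study, the macrophages came from 4 sorts, so libraries of different subsets can share a sort and its mice. The labels do not say which libraries do, and the main fit treats them as unpaired. The edgeR fit and the DESeq2 test were tried on simulated counts, and the other steps were not.

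The members and gene lists were chosen with earlier results of these data known. The text names the listed genes, genes of the fixed lists, sorting markers, and for each member the 3 genes with the highest correlation over the 12 macrophage libraries. Alternatives were DESeq2 1.42.0, relative log expression scaling, other filters, fits of only the compared populations, replicate blocks and leaving out each library. The calls of the T cell and innate lymphoid cell markers in Tim-4+CD4+ macrophages are not reported here.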

Additional observations from a re-analysis of the deposited data

Results flagged for a closer look

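Among 33 groups of 4 libraries examined, 1 library lay far from its group for each of 2 genes, and chance alone gives about 1 such group in 20. Il1a in DN replicate 3 was 48.7 CPM, with the nearest library of its subset at 68.1 CPM, and it still lay above every CD4+ library. Il1b in DP replicate 1 was 3592 CPM, with the nearest library of its subset at 2704 CPM. Leaving out each library in turn, the Il1a log2 fold change stayed between -1.32 and -1.16 in SP against DN macrophages, and that of Il1b between -0.49 and -0.31 in DP against DN macrophages.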

How the results depend on the processing

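Of the alternatives run for single genes, 1116 kept their direction and side of the threshold, 24 passed it only under the alternative, 12 no longer passed it and 17 changed sign. The ratios are not part of these counts. The 12 losses were all of Il23a in SP against DN macrophages. In DP against SP macrophages, 1 member (Il1rn) rather than 0 was called with DESeq2 and in the fit of only the 2 populations, and leaving out 1 library gave 0 to 1 members. DESeq2 called 917 genes there against 539. In SP against DN macrophages leaving out 1 library gave 1033 to 2203 called genes against 1589, lowest without SP replicate 4. The cause was not tested. Sign changes were of values that did not pass the test. Tnf in DP against SP macrophages was 0.0074 with a mean of at least 1 CPM, against -0.01. Leaving out 1 library gave log2 ranges there of -0.075 to 0.060 for Tnf, -0.072 to 0.14 for Il1a, -0.64 to 0.071 for Il23a, -0.0084 to 0.24 for Il18 and -0.81 to 0.66 for Ifnb1. Against DN macrophages the ranges were -0.17 to 0.18 for Il12b and -0.63 to 1.05 for Ifnb1 in DP, and -0.19 to 0.76 for Ifnb1 in SP macrophages. Few reads stand behind Ifnb1 in every population and behind Il1a and Il6 in monocytes.

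The replicate numbers of titles and descriptions differ for SP macrophages, and neither numbering met the criterion for pairs (every correlation over 0.1). Same-numbered libraries deviated from their group means with correlations of -0.12 to 0.16 in the 3 comparisons of subsets, and no more than 2 of 4 libraries correlated best with their own number. By title numbers, SP replicates 1 to 4 correlated best with DN replicates 3, 4, 2 and 1, at 0.14, 0.16, 0.24 and 0.22. DP replicates 1 to 4 correlated best with DN replicates 1, 3, 2 and 4, at 0.058, 0.13, 0.18 and 0.13. Each library thus had a different DN library as its best match within its subset. DP replicates 1 to 4 correlated best with SP replicates 3, 1, 3 and 2, at 0.094, 0.17, 0.13 and 0.14. For DP replicates 2, 3 and 4 that SP library had the same best DN match, and for DP replicate 1 it did not. Libraries may be paired in a way that neither numbering gives, which would bear on every unpaired p-value between subsets. A fit with that pairing was not run, because no label gives it. In the unpaired main fit Il23a in SP against DN macrophages narrowly passed the threshold (edgeR adjusted p = 0.0466). Il1rn in the same comparison (0.0516) and Il18 in DP against DN macrophages (0.0587) narrowly did not. Their side of the threshold with that pairing was not tested. The permutation tests of the ratios also treat libraries as unpaired. With the replicate block by title numbers, 3, 6 and 0 members were called in SP against DN, DP against DN and DP against SP macrophages, among 1294, 3267 and 431 genes. With the block by description numbers these were 5, 5 and 0 members among 1575, 3666 and 506 genes. Under the title block Il23a was lost in the first comparison (adjusted p = 0.0534), Il18 was called in the second (0.0309) and against monocytes in SP macrophages (0.024), and Ifnb1 was -0.032 in the third. Under the description block Il1rn was called in the first (0.0437).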
